A study of Mus musculus with 4 samples.

Results

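Exonic peaks away from promoters are stretches of accessible chromatin that touch an exon of a protein-coding gene without lying at its start. Members were the autosomal peaks under 8000 bp that overlapped at least 1 base of an exon of a protein-coding gene in GENCODE vM21 (genome build GRCm38) and lay over 2 kb from the start of every protein-coding transcript. They numbered 10829 of the 117282 peaks in the series. For comparison, 37427 peaks of the same size and distance lay in introns, 48294 lay outside protein-coding genes, and 16375 lay within 2 kb of a start.

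The series holds ATAC-seq of cultured mouse mesenchymal stem cells (MSCs), with 2 samples from old mice of 18 to 22 months and 2 samples from young mice of 3 to 5 months, all grown at 2% O2. In ATAC-seq a transposase cuts and tags open DNA, and the number of tagged fragments at a site measures how accessible it is. Genotype and strain are not given in the labels, and the sources used here do not say whether a sample was 1 animal or a pool. The labels do not say that the samples came from separate cultures, so the p-values measure the spread between these samples. The published methods that describe the group's MSC preparation name wild-type C57BL/6N mice, hind limb bones and sorting of cells positive for Sca-1 and CD140a and negative for CD45 and Ter-119, but they cover cells at high and low oxygen and not the old cells. The old libraries (replicates 1 and 2) totalled 28600303 and 32559794 counts, and the young libraries 28259470 and 29413803. Peaks held 43.8% and 50.3% of the old libraries and 57.5% and 62.9% of the young ones, and mitochondrial peaks held 15.7% and 6.52% of the summed value in the old and 13.5% and 14.5% in the young samples. The share in peaks was thus lower in both old libraries, and its part in the results was not tested. Each deposited value is a score, a whole number of steps with no division by peak length. A step was taken as 1 count per 10000000 of the library. The scale is not stated in the files, and at 1000000 the peaks would hold 438% to 629% of the libraries, so the totals and shares above rest on this inferred scale.

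Accessible chromatin is usually strongest at promoters and at distal enhancers, where nucleosomes give way to transcription factors. Most distal elements lie in introns or between genes, but a smaller number overlap exons, where the same bases both carry the message and are read by DNA-binding proteins. First exons often mark alternative starts, internal exons are mostly coding, and last exons are largely untranslated.

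The cell type label was checked at promoter peaks of marker genes. All 6 MSC markers (Ly6a, Pdgfra, Prrx1, Thy1, Eng and Cd44) had a promoter peak, and so did 3 of 4 endothelial markers (Pecam1, Kdr and Tek). Of blood markers, Spi1 and Csf1r had one. As deposited, the denser peak of Spi1 held 12.5 and 12.3 per kb in the old and 21.2 and 14.6 in the young samples. Both old samples were thus below both young ones on that scale. After the scaling between samples used below, its log2 fold change, old against young, was -0.20 (adjusted p = 0.81 in limma). The Csf1r peak held 14.3 and 27.2 against 21.5 and 23.3, where the groups overlapped. No promoter peak was present for Ptprc (CD45), Itgam, Hbb-bt or Cdh5. The summed value per kb of the MSC markers was 79.1 and 108.6 in old replicates 1 and 2 and 104 and 109 in young replicates 1 and 2. That of the endothelial markers was 40.5 and 53.0 in the old samples and 63.9 and 68.3 in the young samples. The endothelial sum was thus lower in both old samples as deposited. Of its genes only Tek had both old samples below both young ones (13.8 and 17.7 against 33.4 and 30.8 per kb), and the groups overlapped at Pecam1 and Kdr. The part of blood and endothelial markers in the results below was not tested. No MSC or endothelial marker had a promoter peak above the median of promoter peaks under 8000 bp (24.9 per kb). The peaks of Ly6a (8900 bp), Pdgfra (15200 bp), Prrx1 (10800 bp) and Cd44 (36700 bp) were wider than that limit. Their values per kb are means over these widths, so they cannot be set directly against that median. The peaks of Pecam1, Kdr and Tek were 600, 1500 and 1600 bp wide. The most abundant MSC marker was Pdgfra (CD140a), with 19.1 and 28.1 per kb in the old and 24.1 and 22.3 in the young samples.

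Exon position divided the members unevenly. Internal exons held 6511 members, last exons 3581, first exons 527 and transcripts of a single exon 140, while 70 members overlapped 2 positions equally. A total of 9690 members (89.5%) touched exons of 1 position only. Coding bases were present in 8026 members (74.1%), untranslated bases of the 3' end without coding bases in 1462, and untranslated bases of the 5' end alone in 115. A further label, exons of noncoding transcripts of coding genes alone, was given to 1287 members (11.9%). These classes are not exclusive, since some members with that label were also counted under coding or untranslated bases. The median member was 1400 bp wide and overlapped 233 exon bases, and in 2651 members (24.5%) exons filled at least 50% of the peak. Exons thus filled the smaller share of most members. Exons made up 4.01% of the bases in peaks over 2 kb from starts and 3.00% of the autosomal bases at that distance, a ratio of 1.33.

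First-exon members were nearly all starts of noncoding transcripts. Of the 527, 524 (99.4%) overlapped exons of noncoding transcripts only, and 518 (98.3%) lay within 1 kb of the start of such a transcript. This follows from the rule, which removed the starts of coding transcripts. Across all members, 2201 (20.3%) lay within 1 kb of a start of a noncoding transcript of a coding gene. Members lay at a median of 15889 bp from the nearest coding start, closer than intronic peaks (28914 bp) and intergenic peaks (53153.5 bp). By position the median distance was 18899 bp for first, 17629 bp for internal and 12889 bp for last exons. At the distance threshold, 107 members between 2000 and 2200 bp from a start had a median of 12.1 per kb and a median log2 fold change of 0.18, and 94 exonic peaks between 1800 and 2000 bp, just outside the rule, had 11.8 per kb and 0.12.

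In GC content and CpG ratio, members stood between other distal peaks and promoters. Their median GC content was 47.8%, against 45.2% in introns, 45.0% between genes and 51.4% at promoters. The observed over expected CpG ratio was 0.226, against 0.192, 0.191 and 0.472, so members lacked the CpG density of promoters. Repeats covered a median of 12.4% of a member, against 14.1% of an intronic, 15% of an intergenic and 12.7% of a promoter peak, so in repeats members were the lowest of the 4 classes. Accessibility per kb was close to that of the other distal classes. The median member had 12.3 per kb, the median intronic peak 12.3, the median intergenic peak 13.0 and the median promoter peak 24.9.

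Motifs were searched on both strands in the central 300 bases of each peak of at least 300 bp. The CTCF motif was found in 2.77% of exonic windows, 1.70% of intronic, 2.26% of intergenic and 0.822% of promoter windows. The AP-1 motif TGANTCA was found in 18.8% of exonic windows, fewer than in intronic windows (23.7%) but more than at promoters (8.88%). The E-box CAGCTG was found in 19.6% of exonic windows against 17.8% and 17.0% of intronic and intergenic ones. The RUNX motif TGTGGT was found in 25.7%, against 28.0% in both other distal classes, and the TEAD motif GGAATG in 19.3%, against 22.0% and 22.9%. Promoter-type motifs were infrequent in members, with CCGGAAG (ETS) in 1.79% and GGGGCGGGG (GC box) in 1.60%, against 7.16% and 7.38% of promoter windows. Both were still more frequent than in intronic (1.11% and 0.761%) and intergenic windows (1.47% and 1.04%). TTGGCA (NFI) was found in 19.8% of exonic, 20.3% of intronic and 21.0% of intergenic windows, and TGACGTCA (CRE) in 0.431%, 0.339% and 0.382%. A match describes the letters in the window and not binding, and GC content differed between the classes.

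The deposited value of the median member was 15.4 and 19.0 in old replicates 1 and 2, and 18.8 and 19.4 in young replicates 1 and 2. Old replicate 1 was the low sample, and old replicate 2 lay between the 2 young samples. The group means of these medians were 17.2 ± 2.59 in old and 19.1 ± 0.441 in young MSCs (SD, n = 2 each; two-sided exact permutation test p = 0.67, where the smallest p that 2 against 2 allow is 0.33). On the values as deposited the median log2 fold change of members, old against young, was -0.16, and that of all peaks was -0.27. Over the 4 old-young pairs it ranged from -0.38 to 0.033, with the positive value in old replicate 2 against young replicate 1, and without old replicate 1 it was 0.015. Fold changes were taken on log2(value + 1), so those of weak peaks are understated.

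Values were next divided by RLE factors, a median-ratio scaling between samples, which set the median of all peaks to 0.0011. Relative to this typical peak, members stood higher in old MSCs: their median log2 fold change was 0.11 and ranged over the 4 pairs from 0.062 to 0.16. Intronic peaks had a median of 0.027, intergenic peaks -0.027 and promoter peaks -0.021. Of the members 38.3% were lower in old MSCs, against 49.9% of all peaks. Without scaling the share of lower members was 66.5%, against 74.6% of all peaks, so the direction of the median member depended on the scaling while its place above the median of all peaks did not. Within samples, the exonic minus intronic difference in median log2 value was 0.52 and 0.53 in old replicates 1 and 2 and 0.45 and 0.41 in young replicates 1 and 2. Each old value was above each young value (p = 0.33 by exact permutation, two-sided, the smallest possible). Members held 9.18% and 9.38% of the summed value of autosomal peaks under 8000 bp in the old samples and 8.81% and 8.70% in the young samples.

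The shift was shared by the exon positions. The median log2 fold change was 0.11 for first exons (pairs from 0.043 to 0.16), 0.12 for internal exons (0.068 to 0.16) and 0.099 for last exons (0.049 to 0.16). Members with coding bases had 0.11, members with 3' untranslated bases alone 0.097 and members on noncoding transcripts alone 0.098. Members that were at least 50% exon had 0.11 and the rest 0.11, the same median at this precision. Members with 2 or more exons had 0.15 (pairs from 0.074 to 0.22) and members with 1 exon 0.098 (0.057 to 0.14). With distance from a start the median went from 0.15 between 2 and 5 kb to 0.14 between 5 and 20 kb and 0.078 between 20 and 100 kb. Beyond 100 kb it was 0.0093, where the pairs ranged from -0.051 to 0.020. Intronic peaks declined too. In 5 equal groups of exonic and intronic peaks by distance, their median went from 0.086 in the nearest to -0.051 in the farthest. The members' median there went from 0.14 to 0.011. Every autosome had a median above 0 for its members, from 0.027 on chromosome 13 to 0.19 on chromosome 11, and in all 19 the members' median exceeded that of intronic peaks, by 0.0070 to 0.12.

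GC content moved with this difference, and its part was measured only as follows. Across members the log2 fold change correlated with GC content with Pearson's r = 0.26 (10829 peaks, which share the same 4 libraries and are not independent), and the r over the 4 pairs ranged from 0.078 to 0.32. The same r was 0.25 over intronic and 0.23 over all peaks. Exonic and intronic peaks together were divided into 5 equal groups by GC content. The members' median was -0.077 in the group lowest in GC and 0.22 in the group highest in GC. At like GC content the exonic minus intronic difference was smaller than the overall 0.082. It was 0.066, 0.029, 0.012, 0.00096 and 0.032 from the lowest to the highest group, and in 2 of these groups the pairs spanned 0. After subtraction of the median at like GC content and width the difference was 0.043. At like width, value per kb, distance from a start or CpG ratio it stayed between 0.044 and 0.12 in each of 5 groups, with pairs that spanned 0 in the group highest in value per kb (0.044, pairs from -0.018 to 0.11). In the 4143 genes that held both kinds of peak, the exonic median exceeded the intronic one by a median of 0.038 (pairs from 0.028 to 0.049), and it was the higher of the 2 in 54.5% of genes.

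Motif content was read against the same fold changes. In members with the CTCF motif the median log2 fold change was 0.20, against 0.11 without it, a difference of 0.091. Over the 4 pairs this difference ranged from -0.023 to 0.22, and the windows with the motif lay in peaks of higher GC content (49.4% against 47.7%). It was 0.13 in intronic peaks (pairs from 0.067 to 0.22) and 0.16 in intergenic peaks (0.031 to 0.29). Members with TGTGGT had 0.088 against 0.12 without it, and members with GGAATG 0.083 against 0.12. For both, the difference was below 0 in all 4 pairs, and the same held in intronic and intergenic peaks. There it was -0.047 and -0.060 for TGTGGT, against -0.030 in members, and -0.045 and -0.037 for GGAATG, against -0.034. For TGANTCA (0.12 with, 0.11 without) the pairs spanned 0. Members with CAGCTG had 0.14 against 0.10, with a GC content of 49.4% against 47.4%. That difference was 0.034, against 0.040 in intronic and 0.059 in intergenic peaks, where the pairs spanned 0. The part of GC content in these differences was not tested.

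Single peaks were tested with limma over all 117282 peaks, with Benjamini-Hochberg adjustment. Of the 10829 members, 641 (5.92%) were lower at an unadjusted p under 0.05, against 8.87% of all peaks, and 1241 (11.5%) were higher, against 7.49% of all peaks. At an adjusted p under 0.01, 1 member was lower in old MSCs, against 0.0307% of all peaks, and 4 were higher, against 0.0256% of all peaks. At an adjusted p under 0.05, 48 members (0.443%) were lower, against 0.771% of all peaks, and 62 (0.573%) were higher, against 0.351% of all peaks. Members thus had a lower share of falls and a higher share of rises than all peaks, and 56.4% of their calls were rises, against 31.3% over all peaks. Among intronic peaks the calls were 253 lower and 135 higher, and among intergenic peaks 542 and 170. Among promoter peaks they were 26 lower (0.159%) and 32 higher (0.195%). Rises were thus 55.2% of the promoter calls, near the share in members. On the values as deposited, 76 members (0.702%) were called lower at 0.01, against 1.14% of all peaks, and 6 (0.0554%) higher, against 0.0443%. Whether falls or rises were the more numerous among members thus depended on the scaling, while on both scales members had a smaller share of falls than all peaks. Their share of rises as deposited was near that of all peaks at 0.01, where it rested on 6 members. At an adjusted p under 0.05 as deposited, 35 members (0.323%) were higher, against 0.214% of all peaks, and 293 (2.71%) lower, against 4.22%. At an unadjusted p under 0.05, 262 (2.42%) were higher, against 1.70%, and 1380 (12.7%) lower, against 18.5%. The share of rises was thus above that of all peaks at both of these thresholds. The difference between these shares was not tested. The counts at 0.01 also depended on single samples. Without old replicate 1, 381 members (3.52%) were lower, against 5.52% of all peaks, and 549 (5.07%) higher, against 3.31%. Without old replicate 2, 71 (0.656%) were lower, against 1% of all peaks, and 69 (0.637%) higher, against 0.428%. Without young replicate 1, limma called 0 lower, against 0.000853% of all peaks, and 1 higher, against 0.00597%, with 325 lower and 741 higher at an unadjusted p under 0.05, against 5.05% and 4.2% of all peaks. Without young replicate 2 it called 0 in either direction, against 0% of all peaks, with 228 lower and 505 higher at an unadjusted p under 0.05, against 3.49% and 3.46%. Groups that did not overlap, with both old samples below both young samples, occurred in 1878 members (17.3%), against 24.2% of all peaks, and the reverse in 3354 members (31.0%), against 23.2% of all peaks.

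The 110 members past 0.05 changed the same way in all 4 pairs, which the test itself selects for. Their absolute log2 fold changes ran from 0.80 to 2.42 for those lower and from 0.78 to 2.65 for those higher in old MSCs. The lower members had a median GC content of 44.4% and lay at a median of 26768.5 bp from a start, and the higher ones had 47.3% and 17601 bp. In 6 of the lower and 5 of the higher members at least 1 sample held 3 counts or fewer. They fell in 108 genes, of which 2 had 2 such peaks. Both peaks of Lgr6, a receptor for R-spondins, were higher, with log2 fold changes of 1.14 and 1.43, and both peaks of Ccdc68 were lower, with -1.02 and -1.85. The Ccdc68 peaks abut and form 1 continuous region. These 2 genes were picked after their values were seen. The counts at 0.05 also depended on single samples. Without young replicate 1 limma called 0 lower and 3 higher at 0.05, against 0.00597% and 0.0171% of all peaks, and without young replicate 2 it called 0 and 4, against 0.00256% and 0.0162%, with 325 and 228 lower members at an unadjusted p under 0.05, against 5.05% and 3.49%. Without old replicate 1 the counts were 681 and 1064, against 9.54% and 6.87% of all peaks, and without old replicate 2 they were 202 and 226, against 2.50% and 1.41%. With moderation neither trended nor robust they were 0 and 0, against 0% of all peaks, with 526 lower and 1117 higher at an unadjusted p under 0.05, against 8.04% and 7.44%. With pseudocount 0.1 the counts at 0.05 were 27 lower and 32 higher, against 0.483% and 0.223% of all peaks.

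Slc44a5, a choline transporter-like gene, carried the member with the lowest adjusted p. The peak chr3:154253001-154253700 ended within exon 12 of 22 and covered 60 of its coding bases. Its RLE-scaled value was 39.0 and 45.2 in old replicates 1 and 2 and 8.58 and 6.20 in young replicates 1 and 2. Both old samples were far above both young samples (log2 fold change 2.37, standard error 0.27, limma adjusted p = 0.00168).

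Ptger4 encodes the prostaglandin E2 receptor EP4. Its member in the last of 3 exons, chr15:5234401-5235300, held 588 coding bases and 234 bases of the 3' untranslated region. The scaled value was 15.4 and 26.4 in the old samples and 2.31 and 2.66 in the young samples (log2 fold change 2.61, standard error 0.35, adjusted p = 0.00437). The old samples differed from each other more than the young ones did, but the groups were well apart. The young samples held 7 and 9 counts.

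Klra4 belongs to the Ly49 receptors of natural killer cells. Its member chr6:130062901-130063600 covered the 90 coding bases of exon 3 of 7 and had a scaled value of 13.3 and 13.0 in the old samples and 0.660 and 2.07 in the young samples (log2 fold change 2.65, standard error 0.40, adjusted p = 0.00868). The young samples held 2 and 7 counts. Klra4 lies in a cluster of similar genes, and whether its reads map there alone was not tested.

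Cog7, a subunit of the Golgi complex that tethers vesicles, carried the widest of these peaks, chr7:121930601-121938100, with 341 coding bases. Its scaled value was 172 and 195 in old and 84.5 and 91.5 in young MSCs (log2 fold change 1.05, standard error 0.16, adjusted p = 0.00870). Paxip1, which acts in DNA damage signalling and with histone methyltransferases, carried the only member called lower at 0.01. The peak chr5:27744501-27745800 covered 55 coding bases of exon 18 of 21, which it overlapped in part, and its scaled value was 17.1 and 12.4 in old and 51.2 and 49.6 in young MSCs (log2 fold change -1.72, standard error 0.24, adjusted p = 0.00565). In both genes the groups did not overlap and differed by far more than the samples of a group. Such separation is what the test selects for in each member called at 0.01, so it adds no support to these calls.

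Among the samples left out in turn, only the young ones ended any of these 5 calls. Without young replicate 1 only Slc44a5 stayed past 0.01 (adjusted p = 0.00117, in a range from 2.33e-11 to 0.0182 over the samples left out), and without young replicate 2 none of the 5 did. The fold changes kept their direction without young replicate 1 or 2, at 0.99 and 1.10 for Cog7, -1.70 and -1.74 for Paxip1, 2.53 and 2.66 for Ptger4, 2.57 and 2.16 for Slc44a5 and 2.20 and 3.06 for Klra4. With either old sample left out all 5 passed. On the values as deposited 4 of the 5 passed, and Cog7 lost its call (log2 fold change 0.76). With pseudocount 0.1 Klra4 (adjusted p = 0.0170) and Cog7 (0.0145) missed 0.01. With peaks below the lower quartile of value left out, only Slc44a5 passed, Paxip1 (0.0101), Ptger4 (0.0101) and Cog7 (0.0133) missed 0.01, and Klra4 fell outside the filter. With variance moderation that was neither trended nor robust, limma called 0 members in either direction, against 0% of all peaks. At an unadjusted p under 0.05 that fit had 526 lower and 1117 higher members, against 8.04% and 7.44% of all peaks. Limma-voom on recovered counts called 2 lower at 0.01, against 0.081% of all peaks, and 6 higher, against 0.0418%, and of the 5 calls only Klra4 was not among them (adjusted p = 0.0137).

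Coding sequence within each of these 5 members, at most 160 coding bases, is printed from GRCm38 on the strand of the gene, to show what sequence the peaks with the clearest differences cover. Coding bases are in capitals and flanking intron bases in lower case. Slc44a5 lies on the plus strand at chr3:154253601-154253700, Ptger4 on the minus strand at chr15:5234635-5234794, Klra4 on the minus strand at chr6:130063066-130063235, Cog7 on the minus strand at chr7:121936914-121937113 and Paxip1 on the minus strand at chr5:27744501-27744595.
Slc44a5: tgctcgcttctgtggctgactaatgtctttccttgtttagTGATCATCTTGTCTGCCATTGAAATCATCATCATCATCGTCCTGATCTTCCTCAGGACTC
Ptger4: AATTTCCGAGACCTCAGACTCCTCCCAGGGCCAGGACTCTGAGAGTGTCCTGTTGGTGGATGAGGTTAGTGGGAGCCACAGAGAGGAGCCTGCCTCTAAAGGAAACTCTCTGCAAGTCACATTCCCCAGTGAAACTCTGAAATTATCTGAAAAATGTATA
Klra4: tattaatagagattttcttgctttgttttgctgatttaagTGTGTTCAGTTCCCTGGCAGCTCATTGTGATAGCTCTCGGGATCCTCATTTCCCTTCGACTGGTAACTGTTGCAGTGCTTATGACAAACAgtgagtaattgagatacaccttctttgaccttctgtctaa
Cog7: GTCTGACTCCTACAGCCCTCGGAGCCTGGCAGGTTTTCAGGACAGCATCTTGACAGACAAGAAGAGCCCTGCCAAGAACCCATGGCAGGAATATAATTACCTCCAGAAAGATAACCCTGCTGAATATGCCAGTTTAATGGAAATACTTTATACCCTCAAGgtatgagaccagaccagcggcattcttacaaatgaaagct
Paxip1: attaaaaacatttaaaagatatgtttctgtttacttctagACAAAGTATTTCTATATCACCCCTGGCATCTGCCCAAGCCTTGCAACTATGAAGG

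Among last exons the largest falls past 0.05 were at Smu1 and Spaca6. The Smu1 peak chr4:40736801-40737200 lay wholly in 3' untranslated sequence and also overlapped the neighbouring Dnaja1, so its reads cannot be given to 1 gene. Its scaled value was 0.428 and 2.12 in old and 10.6 and 10.0 in young MSCs (log2 fold change -2.42, adjusted p = 0.0168). The Spaca6 peak chr17:17843001-17843300 touched 9 exon bases of a transcript marked for nonsense-mediated decay and held 3 counts over both old samples and 44 over both young samples, a ratio of young to old of 12.9 (95% exact interval for counting error from 4.13 to 64.8, adjusted p in limma 0.0219). Among last exons the largest rises were at Ptger4 and at Syndig1, a synaptic membrane protein. The Syndig1 peak chr2:150004101-150004700 had a scaled value of 10.7 and 9.10 in old and 0 and 2.66 in young MSCs (log2 fold change 2.51, adjusted p = 0.0274). The calls at Smu1 and Spaca6 were lost without young replicate 1 or 2, and that at Syndig1 without young replicate 1 and with pseudocount 0.1. Without young replicate 1 or 2 the log2 fold changes were -2.38 and -2.43 at Smu1 and -2.60 and -2.02 at Spaca6. At Syndig1 it was 1.56 without young replicate 1 and 4.25 with pseudocount 0.1.

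Among internal exons the largest falls past 0.05 were at Ttc21a and Cast. The Ttc21a peak chr9:119964001-119964300 in a gene of ciliary transport held 2 counts over both old and 30 over both young samples, a ratio of young to old of 13.2 (95% exact interval for counting error from 3.34 to 113.7, adjusted p in limma 0.0438). The log2 fold change was -2.04. This call was lost with quantile normalization (-1.74), with pseudocount 0.1 (-3.35) and without young replicate 1 or 2 (-1.72 and -2.31). Cast encodes calpastatin, the inhibitor of calpains. Its peak chr13:74700001-74701100 had a scaled value of 3.42 and 1.82 in old and 12.5 and 12.1 in young MSCs (log2 fold change -1.91, adjusted p = 0.0219), and the call was lost without either young replicate (-1.89 and -1.93). The largest rises among internal exons were those at Klra4 and Slc44a5. Among first exons limma called 1 member higher and 0 lower at 0.05, against 0.351% and 0.771% of all peaks. At an unadjusted p under 0.05, 54 of the 527 were higher, against 7.49% of all peaks, and 16 lower, against 8.87%. Limma-voom called 6 higher at 0.05, against 0.472% of all peaks, and 2 lower, against 0.904%. The member called lay over a noncoding transcript of Tmem266 at chr9:55330801-55333800, with 30.0 and 37.6 in old and 14.5 and 13.0 in young MSCs (log2 fold change 1.23, adjusted p = 0.0277). This call was lost on the values as deposited (0.96) and without young replicate 1 or 2 (1.30 and 1.15).

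The 3 densest members of each exon position all exceeded the median promoter peak per kb, and none of them passed 0.05 after RLE scaling with all 4 samples. Among first exons, Zbtb20, a zinc finger transcription factor, led with 157 and 198 per kb in old replicates 1 and 2 and 236 and 251 in young replicates 1 and 2, as deposited, at chr16:42874001-42877200. Hhat, the acyltransferase of Hedgehog proteins, followed with a mean of 117 per kb, and Catspere2, a subunit of a sperm ion channel, with 98.2. All 3 were first exons of noncoding transcripts. After RLE scaling their log2 fold changes were -0.17, 0.31 and -0.13, and without old replicate 1 the Hhat peak passed (0.37).

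Among internal exons the densest were at Chl1, Zfp106 and Syne1. The Chl1 peak chr6:103648801-103649500 in a neural adhesion gene had 224 and 154 per kb in old and 172 and 219 in young MSCs, overlapped 11 coding bases and was 47.6% repeat. The Zfp106 peak had a mean of 105 per kb and the Syne1 peak chr10:5287201-5290500 101, with 72.7 and 97.1 in old and 113 and 120 in young MSCs. Without old replicate 2 the Chl1 peak (0.66) and the Zfp106 peak (-0.40) passed 0.05, and without old replicate 1 both had the other sign (-0.20 and 0.31). Of these 3 peaks it held the most coding bases (357), and 160 of them are printed from GRCm38 in capitals, with intron bases in lower case, on the minus strand at chr10:5289176-5289375, to show coding sequence in a dense peak.
Syne1: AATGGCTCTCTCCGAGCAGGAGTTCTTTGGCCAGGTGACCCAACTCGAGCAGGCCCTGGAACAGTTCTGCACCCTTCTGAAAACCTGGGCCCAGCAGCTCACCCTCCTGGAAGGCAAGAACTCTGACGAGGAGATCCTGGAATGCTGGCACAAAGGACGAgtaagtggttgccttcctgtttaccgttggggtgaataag

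Among last exons the densest were at Cyb5a, which encodes cytochrome b5 (mean 113 per kb), Anxa5, which encodes a phospholipid-binding annexin (102), and Chd9, a chromatin remodeller (101), the last on a noncoding transcript. The Chd9 peak had 68.6 and 83.3 per kb in old and 114 and 136 in young MSCs, and was the closest of the densest members to the threshold (log2 fold change -0.43, adjusted p = 0.0893). It passed on the values as deposited (-0.72) and without either old replicate (-0.45 and -0.41). The old samples were below the young samples at Anxa5 (75.3 and 97.2 against 119 and 118) and at Cyb5a (93.6 and 85.8 against 123 and 148) as deposited. After scaling their log2 fold changes were -0.18 and -0.30 and neither passed the test, although Cyb5a did without old replicate 1 (-0.52). Of 5 equal groups of exonic and intronic peaks by value per kb, the densest had a members' median log2 fold change of -0.016 and the least dense 0.25. The intronic medians of these groups were -0.060 and 0.17, so intronic peaks shared this trend.

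Members fell in 6536 genes, of which 4046 had 1 member and 186 had 5 or more. Syne1, which encodes a nuclear envelope spectrin of up to 146 exons, carried the most, 19. Nav2, a neuron navigator gene, and Vps13d, a lipid transfer protein gene, carried 12 each, and the collagen gene Col27a1 and the fibrillin gene Fbn1, both of the extracellular matrix, carried 11 each. The summed scaled value of the Syne1 members was 1045 and 1040 in old and 1123 and 1144 in young MSCs, and that of the Fbn1 members was 413 and 440 in old and 429 and 504 in young MSCs. Of these genes only Syne1 and Nav2 had a member past 0.05, 1 each and both lower, against 0.771% lower and 0.351% higher of all peaks, and with so few members nothing is read from these calls. Col27a1 members had a median log2 fold change of 0.24, with 8 of 11 higher in old MSCs, and Fbn1 members -0.15, with 9 of 11 lower. Of the Syne1 members 11 of 19 were higher in old MSCs, with a median of 0.023. In the summed scaled value the old Syne1 samples were below the young ones, and the groups overlapped for Fbn1. They also overlapped for Col27a1, with 824 and 1051 in old and 932 and 865 in young MSCs.

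Lists of genes of bone, fat and cartilage, matrix, surface markers, blood vessels, homeobox genes and citrate export were read against the same background. Of the 262 members in any list, limma called 0 lower and 0 higher at 0.05, against 0.771% and 0.351% of all peaks, with 0 past 0.05 in limma-voom. At an unadjusted p under 0.05, 22 were lower, against 8.87% of all peaks, and 26 higher, against 7.49%. Collagens had the most members, 80 in 20 of 25 genes, with a median log2 fold change of 0.11 and 35 lower in old MSCs, and matrix glycoproteins had 73 in 22 of 28 genes, with 0.093 and 29 lower. The densest were at Col27a1 (chr4:63309001-63312800, mean 95.7 per kb as deposited, the scale of the other densities below) and at Fbn1 (56.0). Osteoblast and bone matrix genes had 9 members in 5 of 30 genes, with a median of 0.14 and 2 lower. Their densest lay at Dmp1, a matrix protein of osteocytes, with a scaled value of 57.4 and 36.4 in old and 45.2 and 54.9 in young MSCs, where the groups overlapped. Adipogenic genes had 13 members in 6 of 17 genes (median 0.092, densest at Ebf1 with 17.3 per kb) and chondrogenic genes 15 in 7 of 14 (median 0.11, densest at Matn3 with 59.0).

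MSC surface markers and niche factors had 16 members in 10 of 18 genes, with a median of 0.18 and 4 lower, and their densest lay at Vcam1, an adhesion molecule (scaled value 135 and 107 in old and 107 and 125 in young MSCs, where the groups overlapped). Blood and endothelial genes had 16 members in 8 of 19 genes, with a median of 0.038 and 7 lower, and their densest lay at Flt1, a receptor of vascular growth factors (27.0), which passed 0.05 only without old replicate 1 (1.04). Citrate export and histone acetylation genes had 28 members in 12 of 24 genes, with a median of 0.19 and 9 lower, and their densest lay at the histone deacetylase gene Hdac4 (32.5). Homeobox genes of limb and axis had 16 members in 10 of 52 genes and were the only list with a median below 0 (-0.076, 9 lower). With 9 to 80 members a list and no member past the test, the medians describe these peaks only. As deposited the median of each list was below 0, from -0.35 for homeobox genes to -0.080 for citrate export and histone acetylation genes.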

How the data were processed

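ATAC-seq of 2 old and 2 young samples was analysed from 1 deposited table. The authors named its values RPKM, but the deposited values were a score: counts per 10000000 of the library (an inferred scale), not divided by peak length. All values above 0 were whole multiples of 1 step per sample (within 0.1 of a step), which gave library totals in counts. Bowtie2 and Picard are named in the submitters' processing notes with build mm10, without versions. For related cells, the methods describe chromstaR peaks, and 2.58% of members abutted another peak. Peaks were annotated with GENCODE vM21 using Python 3.11.15, pandas 2.3.3 and pyranges 0.1.4. Values were divided by RLE factors (0.817 and 1.01 in old, 1.07 and 1.15 in young samples), and log2(value + 1) was fitted in limma 3.58.1 under R 4.3.3 with trended, robust moderation and Benjamini-Hochberg adjustment over all peaks. A peak with 3 counts had a value between 0.921 and 1.06, and 186 members had 3 counts or fewer in at least 1 sample. Members and lists were chosen with earlier results of these data known. Named peaks were taken from those past 0.01, the 2 largest changes past 0.05 and the 3 densest by exon position, the 5 genes with most members and, in each list, the densest member and any past 0.05. Alternatives covered scaling, pseudocount, filter, moderation, threshold, block, counts, distance, exon overlap, GC content and samples.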

Additional observations from a re-analysis of the deposited data

How the results depend on the processing

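The exonic minus intronic difference kept its sign under all alternatives run for it, from 0.043 with the GC content and width correction to 0.11 without young replicate 1. The median log2 fold change of members after RLE scaling stayed between 0.082 and 0.14 in all alternatives but the values as deposited, where it was -0.16 and 66.5% of members were lower. As deposited, the median turned to 0.084 with the GC content and width correction, which by its construction sets the typical peak to 0, and ranged from -0.33 to 0.015 when 1 sample was left out, above 0 without old replicate 1. After RLE scaling the share of lower members was 41.1% with that correction and ranged from 39.1% to 41.8% when 1 sample was left out.

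Counts of calls moved most. Against 1 lower and 4 higher, there were 76 lower and 6 higher on values as deposited, and 48 lower and 62 higher at 0.05. Quantile normalization gave 2 lower and 6 higher (0.0452% and 0.0358% of all peaks tested, as in the brackets that follow), limma-voom 2 and 6 (0.081% and 0.0418%), equal summed value 1 and 6 (0.0222% and 0.0273%), a pseudocount of 5 gave 1 and 6 (0.0460% and 0.0324%) and one of 0.1 gave 1 and 2 (0.00938% and 0.0111%). At or above the lower quartile of value limma called 0 lower and 1 higher (0.00796% and 0.00909%), with 493 and 988 of 8755 at an unadjusted p under 0.05 (8.52% and 7.37%). Where exons cover at least 50% of the peak it called 0 and 1 of 2651 (0.0307% and 0.0256%), with 187 and 290 at an unadjusted p under 0.05 (8.87% and 7.49%). Plain moderation in limma gave 0 lower and 0 higher, with 526 and 1117 at an unadjusted p under 0.05 (8.04% and 7.44%). With 1 sample left out, where limma assumes that the lone sample varies like the other group, lower calls ranged from 0 to 381 and higher calls from 0 to 549. The cause was not tested.

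With a replicate block, 50 members (0.462%) were called lower, against 0.773% of all peaks, and 53 (0.489%) higher, against 0.309%. Nothing says that samples with the same number belong together. Over all peaks their deviations from the group means correlated with r = -0.099. With 2 samples per group, each group has only 1 free deviation per peak, so this r cannot decide whether samples were paired. Over the alternatives of scaling, pseudocount and samples left out, no named peak past 0.05 changed direction. Over the named peaks and these alternatives, 211 values kept direction and side of 0.05, 21 lost the call, 8 gained one, and 21 of peaks that did not pass changed sign. The filter, plain moderation, the replicate block and limma-voom were not part of this tally. Plain moderation called 0 members at 0.05, against 0% of all peaks, so every named call was lost there. Depth limits the weakest members: 19 had a mean of 3 counts or fewer.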
